A study of Mus musculus with 4 samples.

Results

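The enzymes that build triglyceride were examined in liver of C57BL/6J mice (4 males, 18 weeks old). The animals were fed the FAT-MASH diet, a model of metabolic dysfunction-associated steatohepatitis (MASH, fatty liver disease with inflammation), and were also given resolvin D1 (RvD1), which is made from docosahexaenoic acid and acts in the resolution of inflammation. Poly(A)-enriched RNA of whole liver was sequenced, and the samples are called livers 1 to 4 by the number in each title. All 4 livers carry the same diet and treatment and form 1 group, so the values describe levels and their spread between animals, and no effect of the diet or of RvD1 can be read from them. The spread between livers may hold technical as well as biological differences. The set holds 8 genes named by symbol, Gpam, Agpat2, Agpat3, Lpin1, Lpin2, Dgat1, Dgat2 and Mogat1, of 24138 rows in the deposited table, and each symbol matched 1 row.

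Triglyceride is assembled on the backbone of glycerol 3-phosphate. Glycerol-3-phosphate acyltransferases (GPAT) add the first fatty acid, acylglycerolphosphate acyltransferases (AGPAT) add the next to give phosphatidic acid, lipins remove the phosphate to give diacylglycerol, and diacylglycerol acyltransferases (DGAT) add the last fatty acid. Monoacylglycerol acyltransferases (MGAT), best known from the intestine, reach diacylglycerol by another way. In liver the product is stored in lipid droplets or secreted in very-low-density lipoprotein, and its accumulation defines steatosis.

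Values are in FPKM, fragments per kilobase of transcript per M mapped fragments (M, mega), a scale per length on which levels of different genes can be compared. The depth was estimated roughly from the values, within a preset window, at between 18.8 and 20.1 M fragments per liver. The summed FPKM of a library ranged from 516816 to 570681. Of the 6 adipocyte markers, Plin1, Lep and Retn were listed at 0 in all 4 livers and Adipoq at no more than 0.0528 FPKM. Cfd was at 2.81, 0.961, 0.556 and 4.49 FPKM in livers 1 to 4, highest in liver 4. Its deposited span (chromosome 10, 79697305 to 80369637) is long and may cover other genes, so the value may not be of Cfd alone. The summed FPKM of the 6 adipocyte markers was 14.0, 38.5, 12.2 and 22.7, mostly Fabp4, which other cells also express. Of 8 hepatocyte markers 7 were present, with a summed FPKM of 27467, 25634, 26418 and 34570 in livers 1 to 4, and Alb was listed at 0 in every liver, so that a 0 in this table, those of the adipocyte genes included, can be a failed estimate. The summed FPKM of 6 macrophage markers was between 155 and 208 and that of 5 endothelial markers between 38.9 and 50.0. The endothelial sum was mostly Clec4g, highest in liver 4, while Stab2, Pecam1, Kdr and Lyve1 were highest in liver 2. The erythroid markers that matched summed to 1076, 829, 427 and 705 FPKM in livers 1 to 4. The erythroid sum was highest in liver 1, as Gpam, Lpin2 and Mogat1 were. It was mostly Hba-a1, which was highest in liver 1 and lowest in liver 3. Alas2, the other erythroid marker that matched, was instead highest in liver 3 and lowest in liver 2. The 6 stellate cell markers summed to 229, 291, 187 and 212 FPKM, highest in liver 2 as Lpin1 was. The part of these cell types in the enzyme levels was not tested. Liver 2 stood apart in acute phase genes, with a summed FPKM of 5321 over 5 genes against 205 to 467 in the other livers. In bulk tissue, fewer cells of a type and less RNA per cell cannot be told apart.

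All 8 enzymes had a mean of at least 1 FPKM, the level above which a gene was called expressed. Their levels spanned from Dgat2, with 282 ± 25.5 FPKM (SD, n = 4), to Mogat1, with 1.86 ± 0.820 FPKM (SD, n = 4). Together they summed to 797, 781, 854 and 793 FPKM, a 1.09-fold range, which was 0.151 ± 0.0108% (SD, n = 4) of all FPKM. The sum was carried by Dgat2 and Agpat2, and it was even across livers although some members were not.

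**Figure D1:**
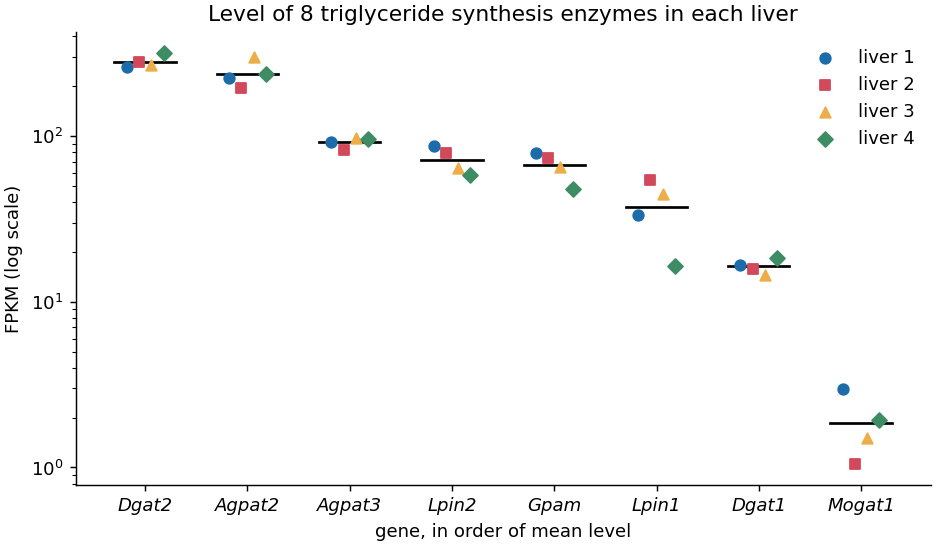
FPKM of each enzyme on a log scale (vertical axis) for the 8 genes in order of mean level, with 1 symbol per liver and a horizontal bar at the mean of 4 livers. Dgat2 and Agpat2 lie near the top with means of 282 and 238 FPKM, Mogat1 lies apart at the bottom, and Lpin1 spans from 16.4 to 54.3 FPKM.

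The window upstream of the transcription start is shown for Gpam, the entry enzyme of the pathway, and for Agpat2, the most abundant gene of the next step. Each run holds the 250 bases before the RefSeq start (GRCm38.p6) nearest to the 5′ end of the deposited span, read 5′ to 3′ on the minus strand, with matches to the GC box GGGCGG on either strand in capitals.
Gpam, chr19:55099478-55099727: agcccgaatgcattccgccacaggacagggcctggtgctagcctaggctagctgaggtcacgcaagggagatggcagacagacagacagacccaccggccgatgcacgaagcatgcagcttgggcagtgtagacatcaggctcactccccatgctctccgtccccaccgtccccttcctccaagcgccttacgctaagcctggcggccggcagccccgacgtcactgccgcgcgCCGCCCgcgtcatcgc
Agpat2, chr2:26604418-26604667: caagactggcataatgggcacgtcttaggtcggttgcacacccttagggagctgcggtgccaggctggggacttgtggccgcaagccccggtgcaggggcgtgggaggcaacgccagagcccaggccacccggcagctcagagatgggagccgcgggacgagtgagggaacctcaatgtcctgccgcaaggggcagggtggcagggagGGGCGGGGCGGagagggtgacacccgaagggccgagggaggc

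RefSeq starts were matched for 6 of the 8 genes (Gpam, Agpat2, Agpat3, Lpin1, Lpin2 and Mogat1). GGGCGG was present in 3 of these 6 windows (1 match in Gpam, 2 overlapping matches in Agpat2 and 1 in Lpin2) and in 32.7% of 32851 windows of the same length. The short E-box CANNTG was present in 3 windows (1 match in Agpat3, 2 in Lpin1 and 2 in Mogat1), against 66.2% of all windows. The full E-box CACGTG was in 0 of the 6, against 6.02% of all windows. The box CCAAT was likewise in 0 of the 6, against 33.8% of all windows. The sterol regulatory element, searched as TCACNCCAC, was in 0 of the 6, against 1.05% of all windows. The window of Mogat1 held 41.2% G and C, that of Gpam 66%, that of Agpat2 69.2% and that of Lpin2 83.2%. These matches describe letters in a short window and say nothing of binding. The RefSeq start of Lpin1 lay 21196 bases from the end of the deposited span, so its window may not be the promoter used for the deposited value.

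At the entry to the pathway stands Gpam (XLOC_010988, chromosome 19, 55069734 to 55099447), which encodes the GPAT of the outer mitochondrial membrane. Gpam had 79.4, 74.0, 65.1 and 48.1 FPKM in livers 1 to 4, with a mean of 66.7 ± 13.7 FPKM (SD, n = 4). Liver 4 was the lowest and liver 1 the highest, a 1.65-fold range, which was 1.22-fold without liver 4. Its level was above that of 89.5% of 10541 expressed genes.

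Gpat4, which encodes a GPAT of the endoplasmic reticulum and is named Agpat6 in the table, differed between livers in the opposite order at its ends. It was listed at 61.7, 79.6, 78.1 and 94.7 FPKM, lowest in liver 1 and highest in liver 4. Gpat3 (Agpat9 in the table), the other enzyme of the endoplasmic reticulum, was at 5.70, 6.48, 3.78 and 9.69 FPKM, and Gpat2 was between 0.513 and 1.02 FPKM. The 4 genes of the step summed to 148, 161, 147 and 153 FPKM, a 1.09-fold range. Gpam thus made up 53.7%, 46.0%, 44.1% and 31.4% of the GPAT transcripts in livers 1 to 4, and Gpat4 41.8%, 49.4%, 52.9% and 61.9%. The evenness of this sum and the opposed ends of Gpam and Gpat4 rest on 4 animals and were seen after the values were examined.

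At the next step Agpat2 (XLOC_012180, chromosome 2, 26593057 to 26604417), the AGPAT whose loss causes generalized lipodystrophy, was the most abundant gene. It stood at 224, 194, 298 and 236 FPKM in livers 1 to 4, with a mean of 238 ± 43.9 FPKM (SD, n = 4). Liver 3 was the highest and liver 2 the lowest, and the 1.54-fold range was 1.22-fold without liver 3 and 1.33-fold without liver 2. In GENCODE vM21 an exon of Egfl7 on the opposite strand covers 64 bases of Agpat2 exons. Egfl7 was at 8.54 to 10.9 FPKM, and whether the counting used strand is not given in the sources used here.

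Agpat3 (XLOC_002156, chromosome 10, 78271563 to 78351700), whose enzyme also acylates lysophospholipids, was a steady member. It was listed at 92.6, 82.8, 97.7 and 95.9 FPKM, with a mean of 92.3 ± 6.65 FPKM (SD, n = 4) and a 1.18-fold range. This was the narrowest of the 8 with all livers as deposited, but Dgat2 was narrower with rescaled libraries (1.17-fold against 1.18-fold) and without liver 4 (1.07-fold against 1.18-fold). Agpat2 exceeded Agpat3 in 4 of 4 livers, by 2.42-, 2.34-, 3.05- and 2.46-fold. The remaining genes of the step were far lower, with Agpat1 at 12.3 ± 2.71, Lclat1 at 11.8 ± 1.26, Agpat5 at 2.54 ± 0.253 and Agpat4 at 0.861 ± 0.486 FPKM (each SD, n = 4). Agpat2 contributed 66.3 ± 2.66% and Agpat3 26.0 ± 2.05% of the summed AGPAT level (SD, n = 4), so the makeup of this step varied less than that of the GPAT step.

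**Figure D2:**
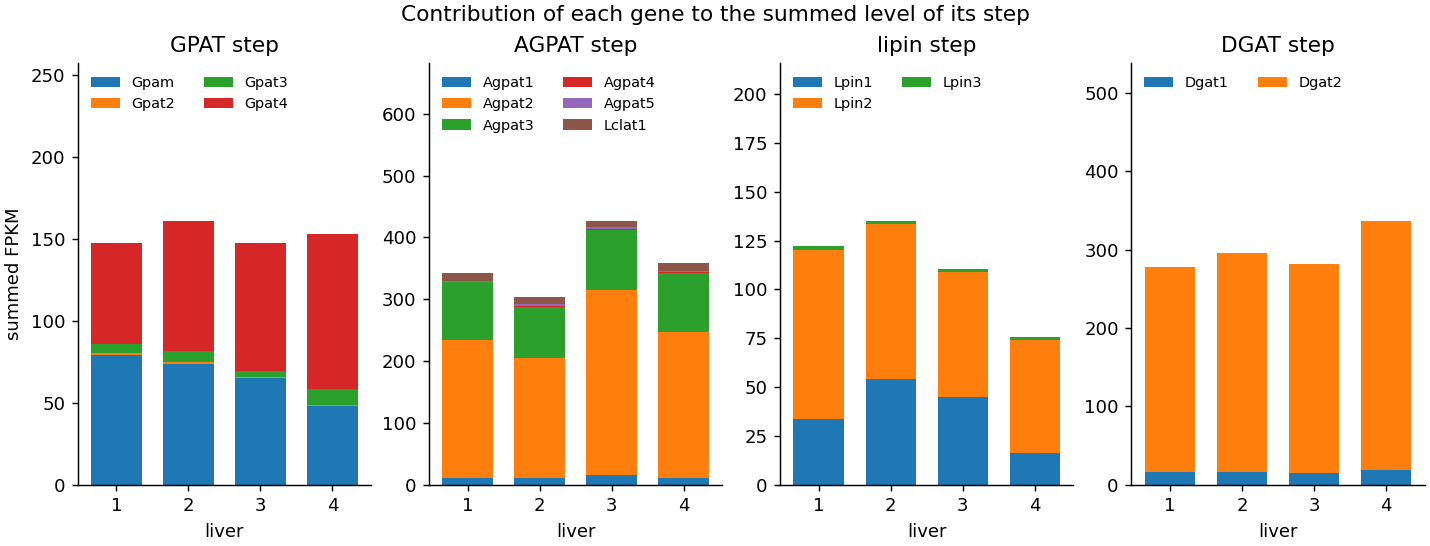
Summed FPKM (vertical axis, from 0, with its own scale in each panel) of the genes of the GPAT, AGPAT, lipin and DGAT steps in livers 1 to 4, with 1 colour per gene. The GPAT sum stays between 147 and 161 FPKM while Gpam goes from 79.4 to 48.1 FPKM, and the lipin sum is lowest in liver 4, at 75.6 FPKM.

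With all 4 livers the member that differed most between animals was a lipin. Lipins are phosphatidate phosphatases of the cytosol that act at the endoplasmic reticulum, and lipin 1 also acts in the nucleus as a coregulator of transcription. Lpin1 (XLOC_004755, chromosome 12, 16535669 to 16589770) had 33.5, 54.3, 44.7 and 16.4 FPKM in livers 1 to 4, with a mean of 37.2 ± 16.3 FPKM (SD, n = 4). Liver 2 was the highest and liver 4 the lowest, a 3.31-fold range. On the log2(FPKM + 1) scale its SD of 0.73 exceeded that of 99.5% of expressed genes, and it was 0.34 without liver 4. The range was 2.73-fold without liver 2, the liver high in acute phase genes, and 1.62-fold without liver 4, when Mogat1 differed most (2.84-fold).

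Lpin2 (XLOC_009034, chromosome 17, 71183978 to 71249818), the major hepatic lipin by protein, was listed at 86.7, 79.3, 64.2 and 57.9 FPKM, with a mean of 72.1 ± 13.3 FPKM (SD, n = 4). Its livers ranked as those of Gpam did, with liver 1 highest and liver 4 lowest, and its range was 1.497-fold. Lpin2 exceeded Lpin1 in 4 of 4 livers, by 2.59-, 1.46-, 1.44- and 3.53-fold. The ratio was thus high in livers 1 and 4 and low in livers 2 and 3. Lpin3, the third lipin, had 1.56 ± 0.321 FPKM (SD, n = 4). The 3 lipins summed to 122, 135, 111 and 75.6 FPKM, a 1.78-fold range with liver 4 below the other livers.

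The final step was nearly all Dgat2. Dgat2 (XLOC_020039, chromosome 7, 99153663 to 99182713), whose enzyme acts at the endoplasmic reticulum and on lipid droplets, stood at 261, 280, 267 and 318 FPKM in livers 1 to 4. Liver 4 was the highest, and the range was 1.22-fold, or 1.07-fold without liver 4. Its level was above that of 97.2% of expressed genes.

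Dgat1 (XLOC_007475, chromosome 15, 76502015 to 76511818), an unrelated enzyme with the same reaction, was listed at 16.6, 15.8, 14.5 and 18.4 FPKM, with a mean of 16.3 ± 1.63 FPKM (SD, n = 4) and a 1.27-fold range. It too was highest in liver 4. Dgat2 exceeded Dgat1 15.7-, 17.8-, 18.4- and 17.3-fold, the steadiest of the ratios computed between members (geometric mean 17.3, SD 0.10 on the log2 scale, n = 4). Dgat2 made up 94.5 ± 0.365% of the sum of both genes (SD, n = 4).

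Mogat1 (XLOC_000224, chromosome 1, 78511060 to 78538173), an MGAT of the same family as Dgat2 that is known to be induced in steatotic mouse liver, was listed at 2.97, 1.05, 1.51 and 1.93 FPKM in the 4 livers. Liver 1 was the highest and liver 2 the lowest, a 2.84-fold range that was 1.84-fold without liver 1 and 1.97-fold without liver 2. At the estimated depth these values stand for about 58, 20, 29 and 35 fragments on a transcript of 1178 bases, against about 10769 or more for Dgat2, so Mogat1 rests on the fewest fragments of the 8 enzymes. In GENCODE vM21, exons of a gene on the opposite strand cover 200 bases of Mogat1 exons, and reads of the pair cannot be told apart without strand. Mogat2, the intestinal form, was between 0.162 and 0.327 FPKM. The sum of both MGAT genes was at most 3.13 FPKM in any liver, against 277 FPKM or more for the DGAT step.

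The order of the means was Dgat2, Agpat2, Agpat3, Lpin2, Gpam, Lpin1, Dgat1 and Mogat1. Of the 7 pairs of neighbours in this order, 4 kept it in all 4 livers. The ranges of the pair overlapped for 5 of the 7, and only Agpat2 over Agpat3 and Dgat1 over Mogat1 were apart in range, the latter by 9.39-fold on the geometric mean. Dgat2 was above Agpat2 in 3 of 4 livers (0.90-fold in liver 3), Lpin2 above Gpam in 3 of 4 (0.99-fold in liver 3), and Lpin1 above Dgat1 in 3 of 4 (0.89-fold in liver 4). These 3 pairs did not hold 1 order, and the mean log2 ratio was 0.26 with an SD of 0.30 for Dgat2 over Agpat2, 0.12 with an SD of 0.12 for Lpin2 over Gpam, and 1.06 with an SD of 0.88 for Lpin1 over Dgat1 (each n = 4). With 4 livers an exact sign-flip test of a ratio, two-sided, cannot give a p below 0.125, so none was applied.

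The spread of the enzymes was set beside that of all expressed genes. A highest liver at least 1.5-fold above the lowest was found for 4 of 8 enzymes (Lpin1, Mogat1, Gpam and Agpat2) and for 28.4% of the 10541 expressed genes. With libraries rescaled by median ratios the number was 5, since Lpin2 then had a 1.56-fold range. It was 4 without liver 1 (22.9% of expressed genes) and 3 without liver 2 (19.0%), liver 3 (16.4%) or liver 4 (19.7%). The median SD of log2(FPKM + 1) was 0.26 over the 8 enzymes and 0.16 over all expressed genes, and the median fold range was 1.52 against 1.34. Agpat3, Dgat2 and Dgat1 lay below the middle, with an SD exceeding that of 21.9%, 32.4% and 36.5% of expressed genes. Agpat3, Dgat1 and Dgat2 were thus the steady members, and Lpin1 was the most variable with all livers, or Mogat1 without liver 4.

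**Figure D3:**
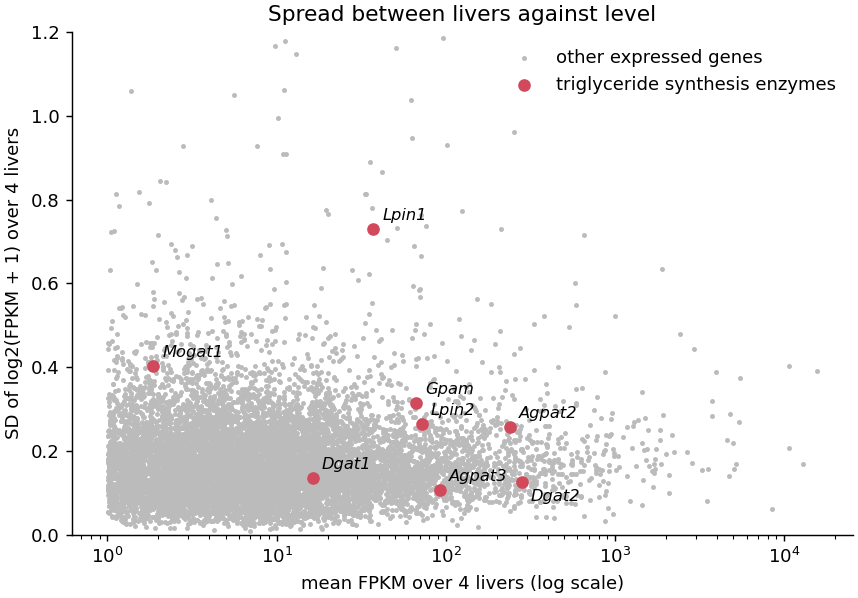
SD of log2(FPKM + 1) over 4 livers (vertical axis) against mean FPKM on a log scale (horizontal axis) for all expressed genes in grey and the 8 enzymes in red, with 20 genes above the upper limit of the axis not drawn. Lpin1 has an SD of 0.73 and Mogat1 of 0.40, while Agpat3, Dgat2 and Dgat1 lie at 0.11, 0.13 and 0.13.

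The livers were also examined for single extreme values. The gap of the most extreme liver to its nearest neighbour, divided by the whole range, was past Dixon's 95% critical value for 0 of 8 enzymes and for 5.46% of expressed genes, a share at which 0 of 8 is no result about the enzymes. The number was also 0 with pseudocounts of 0.1 and 5 and with rescaled libraries. No liver was highest throughout. Liver 1 was highest for 3 enzymes (Gpam, Lpin2 and Mogat1; 17.9% of expressed genes), liver 2 for 1 (Lpin1; 22%), liver 3 for 2 (Agpat2 and Agpat3; 26.8%) and liver 4 for 2 (Dgat1 and Dgat2; 33.3%). Liver 4 was lowest for Gpam, Lpin1 and Lpin2, while 18.1% of expressed genes were lowest there. Liver 2 was lowest for Agpat2, Agpat3 and Mogat1 (29.9%), liver 3 for Dgat1 (31.4%) and liver 1 for Dgat2 (20.7%).

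**Figure D4:**
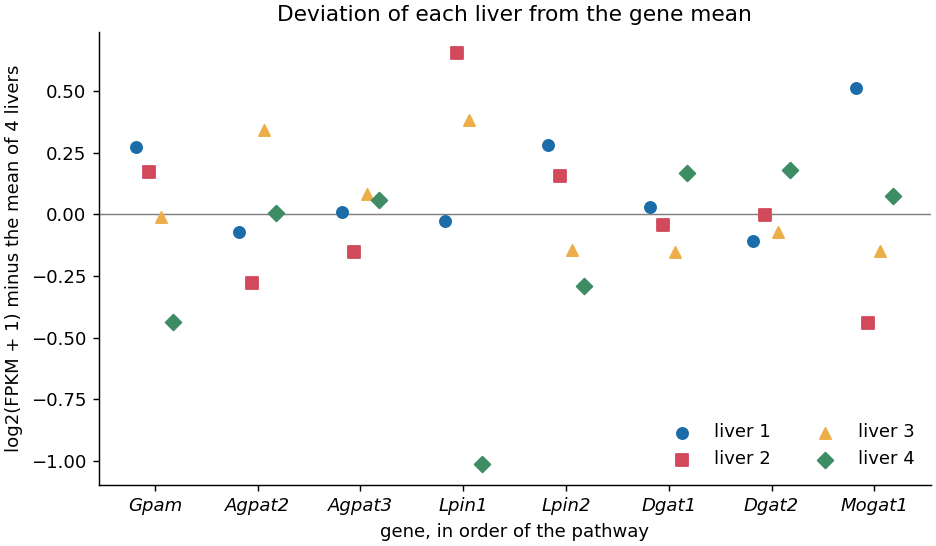
Deviation of each liver from the mean of 4 livers in log2(FPKM + 1) (vertical axis) for the 8 enzymes in the order of the pathway, with 1 symbol per liver. Liver 4 lies lowest for Gpam (-0.44), Lpin1 (-1.01) and Lpin2 (-0.29) and highest for Dgat1 (0.17) and Dgat2 (0.18).

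Liver 4 was the lowest for the mitochondrial GPAT and for Lpin1 and Lpin2, and the highest for both DGAT genes. It also had the highest total FPKM (570681) and the highest sum of hepatocyte markers (34570 FPKM against 25634 to 27467). Of the 7 markers present, 4 were highest in liver 4, against 33.3% of expressed genes. Apoa1, Cyp2e1 and Ttr, which made up most of the sum, were among them. Hnf4a, Cps1 and Ass1 were highest in liver 3. The part of these values in the DGAT levels was not tested. With libraries rescaled by median ratios the highest and the lowest liver of each of the 8 enzymes were the same as without, so liver 4 was highest for Dgat1 and Dgat2 and lowest for Gpam, Lpin1 and Lpin2 on both scales. The lipogenic genes were examined in the same livers because Gpam and Lpin1 are known targets of the sterol regulatory element-binding protein SREBP-1. Of 12 lipogenic factors and enzymes 6 were lowest in liver 4 (18.1% of expressed genes), and 8 of 12 had a range of at least 1.5-fold (28.4% of expressed genes). Srebf1, the gene of SREBP-1 itself, was not among those lowest in liver 4, with 166, 135, 207 and 175 FPKM in the 4 livers. Thrsp, a lipogenic gene of the nucleus and cytosol, was at 1215, 1267, 2012 and 1289 FPKM, lowest in liver 1, and Insig2, which retains the SREBP complex in the endoplasmic reticulum, was highest in liver 4 (79.0, 73.5, 60.0 and 84.2 FPKM). Mlxipl, which encodes the carbohydrate-responsive factor ChREBP, was at 53.0, 48.2, 79.9 and 38.7 FPKM in livers 1 to 4, and Elovl6, a fatty acid elongase, at 49.9, 47.7, 62.7 and 36.1 FPKM. Both were highest in liver 3, as was Agpat2, and lowest in liver 4, as were Gpam, Lpin1 and Lpin2. Nr1h3, the liver X receptor alpha, was at 49.8, 46.3, 59.8 and 52.4 FPKM, lowest in liver 2 as Agpat2 was. Pparg, a factor known to drive Mogat1 in steatotic liver, was at 15.2, 22.2, 21.7 and 25.8 FPKM in livers 1 to 4. The part of SREBP-1, ChREBP, the liver X receptor alpha and Pparg in the enzyme levels was not tested.

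Genes known to be induced by fasting or glucocorticoid were examined because Lpin1 is among them. Of 11 such genes 8 had a range of at least 1.5-fold (28.4% of expressed genes) and 5 were lowest in liver 4 (18.1%). Pdk4, a kinase that inhibits pyruvate dehydrogenase, was at 3.73, 5.66, 3.36 and 1.58 FPKM, with the highest and the lowest liver the same as for Lpin1. Igfbp1, a binding protein of insulin-like growth factors, was at 59.3, 104, 19.6 and 20.1 FPKM, highest in liver 2 and low in both liver 3 and liver 4, and Tat, tyrosine aminotransferase, was at 780, 522, 505 and 335 FPKM, lowest in liver 4. Some other genes of the list were not lowest in liver 4. Fkbp5, a cochaperone of the glucocorticoid receptor, was at 7.31, 16.1, 8.80 and 12.1 FPKM, and G6pc, the glucose-6-phosphatase of gluconeogenesis, at 131, 134, 242 and 149 FPKM, both lowest in liver 1. Pck1, a gluconeogenic carboxykinase, was at 1135, 903, 767 and 873 FPKM, lowest in liver 3. The time of sampling and the feeding state are not stated in the labels, and their part in these values was not tested.

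The genes on either side of the pathway were described from fixed lists. Of 5 genes that supply glycerol 3-phosphate, 2 had a range of at least 1.5-fold, near the 28.4% of all expressed genes. Gpd1, the cytosolic glycerol-3-phosphate dehydrogenase, was at 214, 139, 185 and 201 FPKM, lowest in liver 2, and glycerol kinase (Gyk in the table) at 31.2, 37.5, 27.1 and 41.3 FPKM. Of the 9 expressed genes that lead phosphatidic acid or diacylglycerol into phospholipids, 1 had such a range, the choline kinase Chka (6.15, 10.5, 9.91 and 7.29 FPKM). Pemt, which methylates phosphatidylethanolamine, had 388 ± 40.5 FPKM, Pcyt2 280 ± 23.2 FPKM and Chpt1, the cholinephosphotransferase that competes with DGAT for diacylglycerol, 172 ± 28.9 FPKM (each SD, n = 4). Pemt, Pcyt2 and Chpt1 were highest in liver 4, as were Dgat1 and Dgat2. In all, 5 of the 9 expressed phospholipid genes were highest there, against 33.3% of all expressed genes.

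The genes whose pattern over the 4 livers was nearest to that of the 3 most variable enzymes were listed among the 6538 genes averaging 5 FPKM or more, by the Euclidean distance between log2(FPKM + 1) values centred on their means. For Lpin1 the nearest were S100a9 (5.03, 7.93, 6.37 and 2.42 FPKM, distance 0.23), Ddit4 (distance 0.43) and Lum (distance 0.54), and S100a9 alone was within 0.25. For Mogat1 they were Bnip1 (distance 0.24), Ifi27l2b (0.25) and Glul (275, 179, 211 and 248 FPKM, distance 0.26). For Gpam they were Ddx17 (37.3, 33.8, 30.8 and 23.9 FPKM, distance 0.09), Snhg20 (0.11) and Cyp2a4 (0.12), with 29 genes within 0.25. Among 6538 genes and only 4 livers some will always lie close, so these names describe the table only.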

How the data were processed

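Liver RNA of 4 mice was measured, and the authors deposited 1 table of gene values. Neither header nor labels name the unit. The values as deposited were read as FPKM, since they are not whole numbers, differ in their sums and carry the identifiers that Cufflinks writes. The submitters' processing notes list FastQC 0.10.1, Trim Galore 0.6.3, cutadapt, STAR 2.7.6a and Cufflinks 2.2.1 and the build mm10. The annotation, the strand setting and any scaling between libraries are not given in the sources used here. FPKM hold no counts, so no count model was used. Columns were matched to livers through the sample descriptions, and 0 were left unmatched. The deposited starts were raised by 1, to count from 1.

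Spread was computed on log2(FPKM + 1), which understates differences of low genes, over genes averaging 1 FPKM or more. The depth estimate used genes with 1 GENCODE vM21 transcript over 800 bases, less 200 bases. It was a median over 82 to 142 genes per liver whose FPKM times length fell in a preset window. That window confined the estimate beforehand, so the depth is rough. Subtracting 100 or 300 in place of 200 gave 18.2 to 21.1 M fragments (M, mega), which does not test the window. Approximate fragment numbers rest on the depth estimate. Of 140 symbols in 21 fixed lists 138 were found, 4 of them under an older RefSeq synonym. Promoter windows came from RefSeq GRCm38.p6. The spread measures were tested on simulated data with 200 changed genes. Named genes were the 8 enzymes, genes of the fixed lists, and for the 3 most variable enzymes the 3 nearest genes; genes overlapping an enzyme were added afterwards. The enzymes and lists were chosen with earlier results of these data known. Alternatives were median-ratio scaling, other pseudocounts and minimum levels, the geometric mean, and leaving out each liver. Python 3.11.15, numpy 2.4.6 and pandas 2.3.3 were used.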

Additional observations from a re-analysis of the deposited data

How the results depend on the processing

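Of 22 mean levels and log2 ratios under another scaling, mean or pseudocount, 21 stayed within 1 SD between livers. Leaving out 1 of 4 livers cannot move a mean by 1 SD, so the 52 such values say nothing about stability. Of 26 counts and shares, 23 stayed within 1.5 times. The SDs of log2(FPKM + 1) depended on single livers: without liver 4 that of Lpin1 was 0.34 in place of 0.73, that of Gpam 0.14 in place of 0.31 and that of Dgat2 0.05 in place of 0.13. It was 0.04 in place of 0.11 for Agpat3 without liver 2, 0.15 in place of 0.26 for Agpat2 without liver 3, and 0.26 in place of 0.40 for Mogat1 without liver 1 (0.17 with a pseudocount of 5). With a pseudocount of 1 the mean log2 ratio of Mogat1 to Dgat2 was -6.66 in place of -7.34, because Mogat1 lies near 1 FPKM. The share of genes with a range of at least 1.5-fold, 28.4%, was 50.7% of genes above 0 without a filter, 18.1% with a mean of at least 5 FPKM, and 16.4% without liver 3, where the cause was not tested. The number of enzymes with such a range stayed between 3 and 5. Depth limits Mogat1 most, and 4 animals of 1 group limit every statement to description. No paired analysis was possible because there is only 1 group.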

Other observations

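Genes of triglyceride storage, export and breakdown were described in the same 4 livers. Fitm1, which helps form lipid droplets, had a 2.25-fold range, with 19.0, 12.3, 17.0 and 27.7 FPKM in livers 1 to 4, whereas its relative Fitm2 was between 26.6 and 33.0 FPKM. Both were highest in liver 4, as Dgat2 was. In all, 4 of the 10 expressed genes of storage and export were highest there, near the 33.3% of all expressed genes. Mttp, which loads triglyceride onto apolipoprotein B, had 85.9 ± 4.05 FPKM and Apob 319 ± 27.5 FPKM (each SD, n = 4). Of 10 expressed genes of storage and export, 5 had a range of at least 1.5-fold, and so did 3 of 7 genes of breakdown, against 28.4% of all expressed genes. G0s2, which inhibits the lipase encoded by Pnpla2, was at 133, 180, 396 and 137 FPKM, highest in liver 3 as Agpat2 was, while Pnpla2 was between 60.1 and 74.4 FPKM. Of 10 expressed clock genes, 4 had such a range, near that share.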
